A study of Homo sapiens with 4 samples.

Results

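The genes described here encode the proteins that carry glucose into the cell, trap and commit it to glycolysis, interconvert pyruvate and lactate, and move lactate across the plasma membrane. Members were chosen as 10 gene symbols, SLC2A1, SLC2A3, HK1, HK2, PFKFB3, LDHA, LDHB, SLC16A1, SLC16A3 and PDK1, and all 10 were found among the 16504 gene symbols of the deposited table. They were listed as 23 RefSeq transcripts, of 28918 transcripts with a value and a symbol. Each gene was read as the sum of its transcripts, and each transcript was also read on its own.

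RNA-seq was performed on 4 libraries labelled NB4, the name of an established human cell line of acute promyelocytic leukemia. Of these, 2 came from cells with CEBPG present (control) and 2 from cells with CEBPG knockdown, whose label carries the name CEBPG3. CEBPG encodes a leucine-zipper transcription factor. In the study methods, short hairpin RNAs were delivered in the lentiviral pLKO.1-puro vector and stable cells were selected with puromycin, so the knockdown libraries represent transduced, selected populations. The control was read as carrying a control hairpin, as the study describes its comparison. Both knockdown libraries carry the same name, CEBPG3, while the study lists several hairpins against CEBPG. Loss of CEBPG and other effects of a hairpin cannot be told apart in these libraries. Nothing in the labels says that the 2 libraries of a group came from separate cultures, so the p-values measure the spread between libraries, which may be technical.

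Glucose enters blood cells mainly by facilitated diffusion through transporters of the SLC2A (GLUT) family. Hexokinases phosphorylate it, which keeps it in the cell. PFKFB3 makes fructose-2,6-bisphosphate, the main activator of phosphofructokinase. At the end of glycolysis, pyruvate is either reduced to lactate by lactate dehydrogenase, a tetramer of LDHA and LDHB subunits, or enters mitochondria, where pyruvate dehydrogenase is restrained by PDK1. Lactate and protons cross the membrane together through the monocarboxylate transporters MCT1 (SLC16A1) and MCT4 (SLC16A3). Many of these genes are known targets of hypoxia-inducible factors and of MYC, and leukemia cells commonly run glycolysis at a high rate.

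Values are in FPKM, a fragment count scaled by transcript length and by the library total, which is per length and can be compared between genes. FPKM sums were between 345340 and 366139 per library, read depth was unknown, and the members together held 0.329% and 0.338% of FPKM with CEBPG present and 0.293% and 0.296% after knockdown. CEBPG itself was at 17.1 and 18.1 FPKM in control and 6.91 and 7.96 FPKM in knockdown cells (log2 fold change -1.14, limma adjusted p = 0.000836 in the fit described below), with 42.2% of the control level left. The cell line label was read against marker genes. Of 5 promyelocytic granule genes in the table, 4 (AZU1, PRTN3, MS4A3 and CST7) were under 1 FPKM in every library, and CFD was at 8.59 and 7.63 FPKM with CEBPG present and 10.9 and 10.98 FPKM after knockdown. Of 6 myeloid surface and regulator genes, 3 were under 1 FPKM in every library, while SPI1 was at 15.6 and 15.2 FPKM with CEBPG present and 17.1 and 17.2 FPKM after knockdown, and CD33 at 4.31 and 7.57 FPKM against 9.77 and 9.41 FPKM. All 3 lymphoid markers in the table were under 1 FPKM in every library. In contrast, all 12 erythroid markers were over 5 FPKM in every library. Summed erythroid marker levels were 8302 and 7836 FPKM with CEBPG present and 9284 and 8702 FPKM after knockdown, with 2 of the 12 genes called higher and 3 called lower. The low granule genes and the high erythroid genes go against the promyelocytic label in all 4 libraries, control and knockdown alike, so the results hold for the libraries labelled NB4. The part of this in the results below was not tested. In bulk RNA, fewer cells of a type and less RNA per cell cannot be told apart.

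To address whether the level of each member differed on CEBPG knockdown, the 10968 genes averaging 1 FPKM or more were fitted together on log2(FPKM + 1) with limma, and a gene was called at a Benjamini-Hochberg adjusted p under 0.05. Log2 fold changes below are on this scale, which understates the change of low genes. All 10 members passed the filter. Of these, 4 were called, SLC16A3 higher and SLC2A3, HK1 and HK2 lower, against 20.9% of all tested genes called, 10.9% higher and 9.99% lower. The groups did not overlap in 9 of the 10 members, where 64.8% of all tested genes did not overlap. The median log2 fold change was -0.12 over the members and 0.015 over all tested genes. The study instead asked for a p below 0.05 and a change of over 2-fold. With the unadjusted p and the fold on the log2(FPKM + 1) scale, SLC2A3 alone among the members met such a rule, as did 0.602% of all tested genes. With the ratio of the plain FPKM means, an alternative chosen after the data were seen, SLC16A3 met it as well, as did 1.51% of all tested genes.

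**Figure D1:**
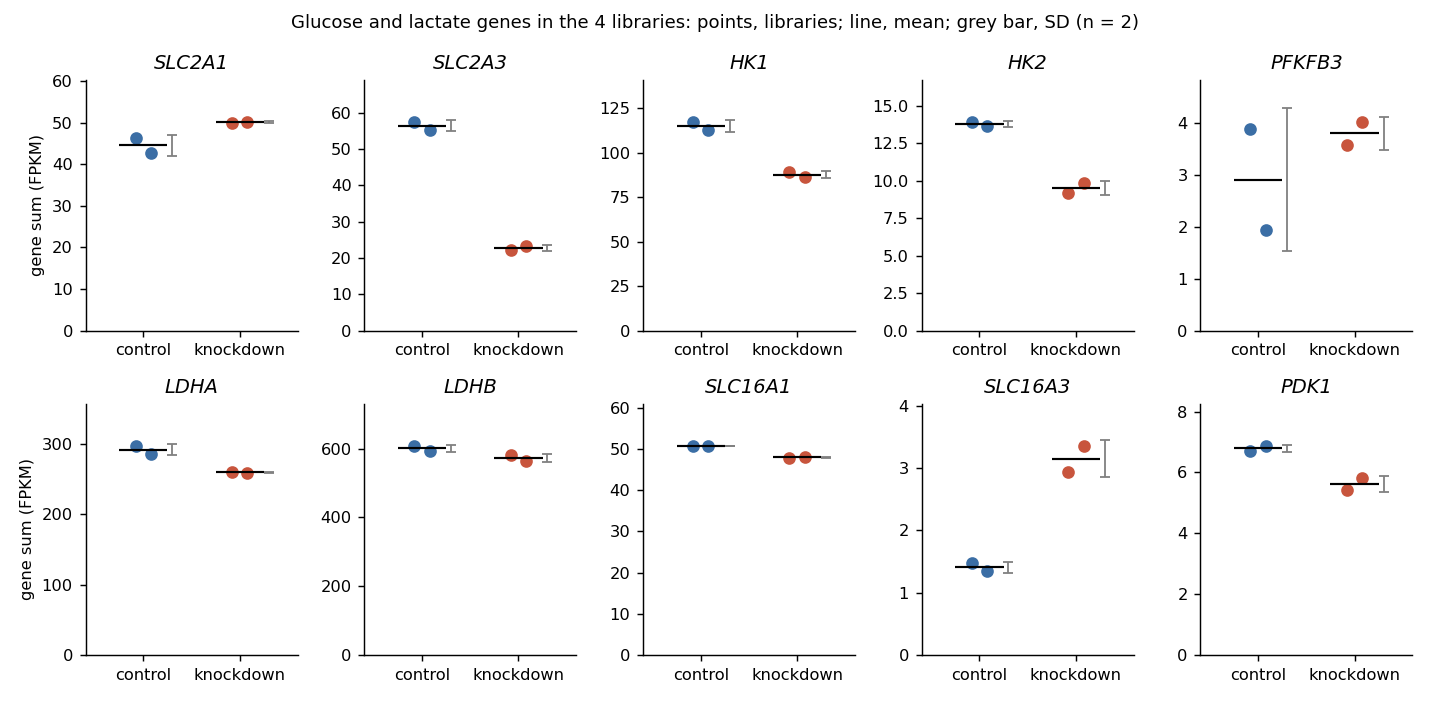
Gene sums of the 10 members in FPKM (y axis, from 0, a scale of its own in each panel) in the control and knockdown groups (x axis). Points are libraries, the black line is the mean and the grey bar the SD of 2 libraries. SLC2A3 falls from 56.4 to 22.7 FPKM, HK1 and HK2 fall less, SLC16A3 rises from a low level, and the PFKFB3 control libraries lie far apart.

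The glucose transporter SLC2A3 showed the largest change of the members. SLC2A3 encodes GLUT3, a transporter with high affinity for glucose that is abundant in neurons and in white blood cells, and lies on chromosome 12 at 7919230 to 8019007 on the minus strand (hg38, GENCODE 44). Its only transcript in the table, NM_006931, was at 57.5 and 55.25 FPKM with CEBPG present and 22.03 and 23.4 FPKM after knockdown. Both knockdown libraries lay far below both control libraries. The mean fell from 56.4 ± 1.601 FPKM to 22.7 ± 0.936 FPKM (SD, n = 2), and 40.3% of the control level was left. Its log2 fold change was -1.28 (SE 0.062, limma adjusted p = 0.00035), and only 4 of the 10968 tested genes had a lower p. Leaving out 1 library at a time gave -1.32 to -1.24, and SLC2A3 was called in each case.

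SLC2A3 has a close paralog on the same chromosome, SLC2A14 (GLUT14), and reads can be divided between them. SLC2A14 was at 2.98 and 3.06 FPKM with CEBPG present and 0.837 and 1.28 FPKM after knockdown (log2 fold change -0.97, limma adjusted p = 0.00466). The split between the paralogs is therefore uncertain. With both genes summed, the log2 fold change was -1.29 (limma, adjusted p = 0.00035).

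SLC2A1 encodes GLUT1, the broadly expressed basal transporter that is also the main one of red cells. It lies on chromosome 1 at 42925353 to 42958893 on the minus strand. SLC2A1, listed as the single transcript NM_006516, was at 46.3 and 42.8 FPKM with CEBPG present and 50.02 and 50.3 FPKM after knockdown. Both knockdown libraries were above both control libraries, but the difference did not pass the threshold, with a log2 fold change of 0.17 (95% interval 0.020 to 0.32, limma adjusted p = 0.101). SLC2A3 was the higher of the pair in both control libraries and SLC2A1 in both knockdown libraries. The ratio of SLC2A1 to SLC2A3 was 0.806 and 0.775 with CEBPG present and 2.27 and 2.15 after knockdown. The sum of the 2 transporters was 103.8 and 98.1 FPKM with CEBPG present and 72.05 and 73.7 FPKM after knockdown.

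**Figure D2:**
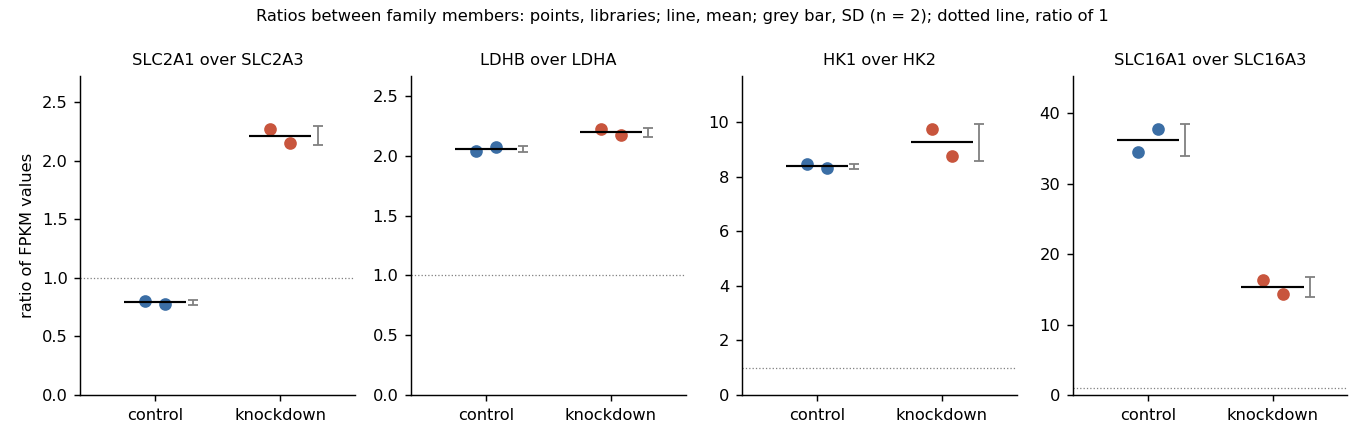
Ratio of the FPKM values of 2 members of one family (y axis, from 0) in the control and knockdown groups (x axis). Points are libraries, the line is the mean, the grey bar is the SD of 2 libraries and the dotted line marks a ratio of 1. The SLC2A1 to SLC2A3 ratio moves from below 1 to above 2.1, the SLC16A1 to SLC16A3 ratio falls from over 34 to under 17, and LDHB is 2.04 to 2.23 times LDHA where the noncoding row is part of the LDHA sum (with coding accessions alone, not plotted, the ratio falls from over 4 to under 2.8).

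The RefSeq promoter table (GRCh38.p14) held 22 start windows for 8 of the members, and the 250 bases upstream of each start were searched on both strands. Stretches of 3 are shown, for both hexokinases and for LDHA, whose main transcripts differed in direction, as described below: LDHA with the core letters of the hypoxia response element (ACGTG or GCGTG) in capitals, HK2 with the same letters, and HK1 with the letters TGATGNAA of the C/EBP-ATF composite element, here on the opposite strand. They are printed 5′ to 3′ along the gene, at chr11:18394363-18394513, chr2:74833877-74834087 and chr10:69269940-69269980, all on the plus strand.
LDHA: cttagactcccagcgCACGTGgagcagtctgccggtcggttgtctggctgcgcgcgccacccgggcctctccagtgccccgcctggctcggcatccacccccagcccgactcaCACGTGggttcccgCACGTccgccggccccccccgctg
HK2: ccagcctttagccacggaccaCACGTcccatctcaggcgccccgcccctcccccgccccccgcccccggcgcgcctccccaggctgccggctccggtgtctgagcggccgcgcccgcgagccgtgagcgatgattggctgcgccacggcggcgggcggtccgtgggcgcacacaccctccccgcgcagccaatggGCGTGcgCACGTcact
HK1: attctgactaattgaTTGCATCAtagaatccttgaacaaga

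LDHA held 2 copies of CACGTG, which contains ACGTG on both strands and is also the E-box read by MYC, 185 and 87 bases upstream of the start. The hypoxia letters were found in 11 of the 22 member windows and in 43.2% of all 35116 windows of this length, so they were common. CACGTG was found in 3 of the 22 member windows and in 6.34% of all windows. The letters TTGCNNAA of a C/EBP site were found in 2 of the 22 and in 9.05% of all, and TGATGNAA in 2 of the 22, both at overlapping starts of HK1, and in 3.14% of all. These are matches of letters. The printed HK1 stretch lies upstream of the start at 69270000, 1 of 7 HK1 starts, where the bases searched held 1 CpG pair and 46.8% G and C. Those of the HK1 start at 69319064 held 30 CpG pairs and 74% G and C, and TGATGNAA was not found there. Whether any factor bound at a match, and which of the 7 HK1 starts the listed transcripts used, was not tested.

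Both hexokinases fell. HK1, the more abundant of the 2 in each library, lies on chromosome 10 at 69269984 to 69401884 on the plus strand. It was at 117.6 and 113 FPKM with CEBPG present and 89.2 and 86.3 FPKM after knockdown, and the groups did not overlap. The mean fell from 115 ± 3.29 FPKM to 87.8 ± 2.03 FPKM (SD, n = 2), with a log2 fold change of -0.39 (SE 0.057, limma adjusted p = 0.00616). Without knockdown 2 the log2 fold change was -0.37 and the call was lost (limma, adjusted p = 0.064). HK1 was listed as 2 transcripts of similar level. NM_033496 was at 66.02 and 64.3 FPKM with CEBPG present and 48.003 and 43.2 FPKM after knockdown, and NM_000188 was at 51.6 and 48.7 FPKM against 41.2 and 43.2 FPKM. Both were lower in each knockdown library than in either control library, although neither was called in the fit of transcripts (limma, adjusted p = 0.0897 and 0.159).

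HK2, the inducible hexokinase that is prominent in many tumours, lies on chromosome 2 at 74834127 to 74893359 on the plus strand and was listed as 1 transcript, NM_000189. It was at 13.9 and 13.6 FPKM with CEBPG present and 9.16 and 9.85 FPKM after knockdown, with no overlap. The log2 fold change was -0.49 (SE 0.068, limma adjusted p = 0.00529), and 69.01% of the control level remained. In the fit of transcripts the same values were not called (limma, adjusted p = 0.0997). HK1 was 8.44 and 8.30 times HK2 with CEBPG present and 9.74 and 8.77 times after knockdown, and the groups did not overlap. HK1 and HK2 together were at 132 and 127 FPKM with CEBPG present and 98.4 and 96.2 FPKM after knockdown.

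PFKFB3 lies on chromosome 10 at 6144934 to 6254644 on the plus strand, and most of its sum in each library was the transcript NM_001145443. It was at 3.89 and 1.93 FPKM with CEBPG present and 3.58 and 4.03 FPKM after knockdown. The control libraries differed by more than the groups did, and the groups overlapped. The log2 fold change was 0.34 (95% interval -0.18 to 0.86, limma adjusted p = 0.301), and 1 control library decided it. Without control 1 it was 0.71 (limma, adjusted p = 0.0135) and without control 2 it was -0.027 (limma, adjusted p = 0.901). No direction could be given for PFKFB3.

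Lactate dehydrogenase was the most abundant part of the set. LDHA encodes the M subunit, known for favouring the reduction of pyruvate to lactate, and lies on chromosome 11 at 18394560 to 18408425 on the plus strand, with the promoter stretch printed above. The LDHA sum was 298 and 287 FPKM with CEBPG present and 261 and 259 FPKM after knockdown. The groups did not overlap, but the difference was small and did not pass the threshold, with a log2 fold change of -0.17 (95% interval -0.30 to -0.032, limma adjusted p = 0.0792). LDHA was called lower after median-ratio scaling (-0.19, limma adjusted p = 0.0215) and after scaling of the columns to one sum (-0.19, limma adjusted p = 0.00993).

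Beneath the LDHA sum, its main transcripts differed in direction. The coding transcript NM_005566 was at 140.2 and 121 FPKM with CEBPG present and 202 and 212 FPKM after knockdown. NR_028500, which carries the RefSeq prefix for noncoding RNA, was at 148 and 157 FPKM with CEBPG present and 49.3 and 43.7 FPKM after knockdown. NR_028500 was thus the larger of the 2 in both control libraries, while NM_005566 was by far the larger in both knockdown libraries. NR_028500 held 49.8% and 54.9% of the LDHA sum with CEBPG present and 18.9% and 16.8% after knockdown, a difference of -34.5 percentage points. Leaving out 1 library at a time gave -37.006 to -31.96 points. With 2 libraries against 2, an exact test of these shares could not pass the threshold, and none was run.

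In the fit of 15795 transcripts averaging 1 FPKM or more, which held 17 of the 23 member transcripts, NR_028500 had a log2 fold change of -1.70 (SE 0.081, limma adjusted p = 0.0405). It and the SLC2A3 transcript were the member transcripts called, against 0.158% of all tested transcripts. Both calls were lost when any 1 library was left out (limma, adjusted p from 0.201 to 0.299), where no transcript at all was called while 2097 to 2695 transcripts had an unadjusted p under 0.05. The log2 fold change of NR_028500 was then -1.78 to -1.61. NM_005566 had a log2 fold change of 0.66 and was not called (95% interval 0.42 to 0.91, limma adjusted p = 0.0873). The minor coding transcript NM_001165414 was at 5.82 and 6.81 FPKM with CEBPG present and 3.17 and 2.17 FPKM after knockdown (-1.004, limma adjusted p = 0.114). NM_001165416 was at 3.24 and 1.38 FPKM against 5.83 and 1.63 FPKM, and its groups overlapped. By the unadjusted p and fold rule, 3 member transcripts passed, NR_028500, NM_001165414 and NM_006931 of SLC2A3, all lower, against 2.01% of tested transcripts. NM_001165414 no longer passed without control 2 or without knockdown 2.

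The direction of LDHA thus depended on which rows were read. With coding accessions alone, LDHA was at 149 and 129 FPKM with CEBPG present and 211 and 216 FPKM after knockdown, with a log2 fold change of 0.62 (SE 0.078, limma adjusted p = 0.00365). The values of the rows depend on how reads were divided between transcripts that share most of their exons. The method of division is not given in the sources used here, and its part in the result was not tested. A shift of this size was uncommon but not confined to LDHA. Among 5554 genes with 2 or more transcripts, the largest shift of any share was at least as large as that of LDHA (34.97 points) in 188 genes (3.38%), and its median was 5.38 points. Between the 2 control libraries the shift was 5.05 points for LDHA, and its median was 6.13 points. The median between groups was thus no larger than that between control libraries.

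**Figure D3:**
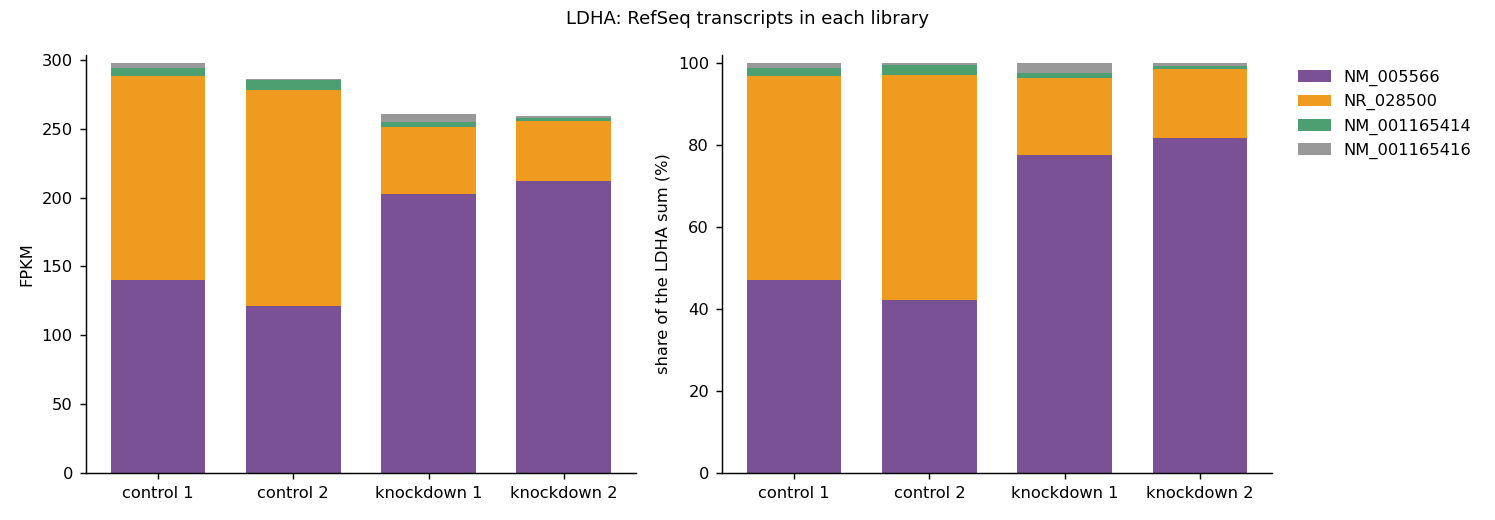
The 4 RefSeq transcripts of LDHA in each library (x axis), stacked as FPKM (left) and as a percentage of the gene sum (right). The gene sum stays between 259 and 298 FPKM, while the share of NR_028500 falls from 49.8% and 54.9% in the control libraries to under 19% in both knockdown libraries.

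LDHB encodes the H subunit, which is typical of oxidative tissues and red cells, and lies on chromosome 12 at 21635342 to 21757857 on the minus strand. The LDHB sum was 608 and 594 FPKM with CEBPG present and 580.1 and 563 FPKM after knockdown, the highest level of the 10 members in each library. The log2 fold change was -0.072 (95% interval -0.21 to 0.068, limma adjusted p = 0.413). The share of its largest transcript differed little, NM_002300 holding 54.5% and 53.95% with CEBPG present and 53.7% and 53.4% after knockdown, in contrast to LDHA. LDHB was 2.04 and 2.07 times the LDHA sum with CEBPG present and 2.23 and 2.17 times after knockdown. With the coding accessions of LDHA alone the ratio had the opposite direction, at 4.07 and 4.597 with CEBPG present and 2.75 and 2.61 after knockdown.

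Of the lactate carriers, SLC16A1 (MCT1) is the common transporter and lies on chromosome 1 at 112911847 to 112957593 on the minus strand. SLC16A1 was at 50.8 and 50.7 FPKM with CEBPG present and 47.95 and 48.1 FPKM after knockdown. Replicates were almost identical, and the log2 fold change was -0.077 (95% interval -0.21 to 0.052, limma adjusted p = 0.342). NM_003051 held nearly all of the sum in each library.

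SLC16A3 (MCT4), the low-affinity carrier that exports lactate from strongly glycolytic cells, rose from a low level. It lies on chromosome 17 at 82217934 to 82261129 on the plus strand. SLC16A3 was at 1.47 and 1.34 FPKM with CEBPG present and 2.94 and 3.36 FPKM after knockdown, with no overlap. The mean was 224% of the control level, and the log2 fold change was 0.78 (SE 0.104, limma adjusted p = 0.00467). SLC16A3 stayed called without each library in turn, at 0.71 to 0.86, and was removed by a filter at 5 FPKM. Even so, SLC16A1 was 16.3 and 14.3 times SLC16A3 after knockdown, against 34.5 and 37.8 times with CEBPG present.

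The 3 SLC16A3 transcripts gave no stable picture. NM_001206950 had a value of 0 in each control library and was at 2.94 and 0.777 FPKM after knockdown. NM_001042423 was at 1.42 FPKM in control 1 and 1.21 FPKM in knockdown 2 and was listed at 0 in the other 2 libraries. NM_001206952 was at 1.34 FPKM in control 2 and 1.37 FPKM in knockdown 2, with 0.055 FPKM in control 1 and 0 in knockdown 1. A single transcript thus held 100% of the sum in control 2 and another held 100% in knockdown 1, and all 3 were below the filter. Only the gene sum was compared.

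PDK1, a kinase that switches off pyruvate dehydrogenase, lies on chromosome 2 at 172555373 to 172608669 on the plus strand. The PDK1 sum was 6.72 and 6.88 FPKM with CEBPG present and 5.44 and 5.81 FPKM after knockdown. The groups did not overlap, and the log2 fold change of -0.24 did not pass the threshold (95% interval -0.41 to -0.059, limma adjusted p = 0.0658). The transcript with the highest mean over the 4 libraries, NM_002610, was at 2.64 and 1.88 FPKM against 3.202 and 1.84 FPKM, and the groups overlapped. NM_001278549 was higher than it in control 2 and in knockdown 2, so no transcript led in every library. The coding accessions of PDK1 summed to 4.46 and 4.56 FPKM with CEBPG present and 4.40 and 4.08 FPKM after knockdown (log2 fold change -0.073, limma adjusted p = 0.55). Noncoding rows held 33.6% and 33.7% of the PDK1 sum with CEBPG present and 19.1% and 29.8% after knockdown. The lower noncoding share was clearest in knockdown 1. All of these rows were low, and the part of the division of reads between them was not tested.

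Other genes of the pathway were read from lists of 84 symbols in all, of which 71 were in the table and 54 passed the filter. Of the 54, 13 were called higher and 6 lower, with a median log2 fold change of 0.062. With columns scaled to one sum, 10 were called higher and 8 lower. Among the 54, 35.2% were called, against 20.9% of all tested genes. EGLN3, EPAS1, HIF1A, PKLR and SLC2A14 were called without each library in turn, and the other pathway genes named as called below were not called without knockdown 1. Calls over all tested genes fell too, to 17.6% without control 1, 15.2% without control 2, 7.39% without knockdown 1 and 7.9% without knockdown 2.

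Among 18 tested glycolytic enzymes, 6 were called higher and 1 lower, and the median log2 fold change was 0.16. Over all tested genes, 10.9% were called higher and 9.99% lower. GAPDH, which was also the reference gene for qRT-PCR in the study, was at 1888 and 1719.7 FPKM with CEBPG present and 2374 and 2267 FPKM after knockdown (0.36, limma adjusted p = 0.0189). PFKP, a phosphofructokinase subunit, changed by 0.31 (limma, adjusted p = 0.018), and the mutase PGAM1 by 0.29 (limma, adjusted p = 0.019). The number called higher was 5 without control 1 and 2 without control 2, and without either knockdown library PKLR was the one glycolytic enzyme still called, beside the lower shares of all tested genes given above. PKLR, the liver and red cell pyruvate kinase, went the other way, from 6.22 and 5.50 FPKM to 2.67 and 2.64 FPKM (-0.91, limma adjusted p = 0.0018). The erythroid markers that fell with it included HBZ (-0.83) and ALAS2 (-0.73), while HBG1 (0.36) and HBG2 (0.28) rose (limma, adjusted p from 0.000959 to 0.0487). Their part in the PKLR value was not tested. PKM, the pyruvate kinase of most tissues, was at 183 and 165 FPKM with CEBPG present and 193 and 182 FPKM after knockdown (0.11, limma adjusted p = 0.312).

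Of the other glucose and hexose transporters, 3 of 11 were tested and SLC2A14, described above, was the only call. BSG (basigin), the chaperone that brings MCT1 and MCT4 to the membrane, was at 321 and 297 FPKM with CEBPG present and 314 FPKM in both knockdown libraries (0.024, limma adjusted p = 0.819). The other bisphosphate enzymes tested, PFKFB2 and PFKFB4, had log2 fold changes of 0.037 and 0.13 and were not called (limma, adjusted p = 0.818 and 0.244).

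At the entry of pyruvate into mitochondria, 1 of 9 tested genes was called higher and 2 lower, against 10.9% and 9.99% of all tested genes. MPC1, a subunit of the mitochondrial pyruvate carrier, fell from 37.8 and 30.5 FPKM to 22.3 and 23.5 FPKM (-0.55, limma adjusted p = 0.0132), while its partner MPC2 was at 56.1 and 50.1 FPKM against 52.5 and 48.3 FPKM (-0.074, limma adjusted p = 0.523). DLAT, the acetyltransferase of pyruvate dehydrogenase, changed by -0.29 (limma, adjusted p = 0.0231), and PDHX, which anchors the complex, by 0.22 (limma, adjusted p = 0.0468). The PDHX call was lost under both scalings and with moderation without a trend.

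Among 11 tested regulators, 3 were called higher and 2 lower, against 10.9% and 9.99% of all tested genes. HIF1A and EPAS1, the oxygen-regulated subunits of the hypoxia-inducible factors, rose together. HIF1A was at 9.07 and 10.03 FPKM with CEBPG present and 14.7 and 15.7 FPKM after knockdown (0.62, limma adjusted p = 0.00374). EPAS1 was at 9.19 and 8.70 FPKM with CEBPG present and 15.05 and 15.5 FPKM after knockdown (0.71, limma adjusted p = 0.00161). MYC, which drives transcription of many glycolytic genes, fell from 178 and 162 FPKM to 139 and 133 FPKM (-0.31, limma adjusted p = 0.0209), and HIF1AN, an inhibitor of hypoxia-inducible factors, changed by -0.34 (limma, adjusted p = 0.0298). The remaining call, named after its value was seen, was VHL, which marks hypoxia-inducible factors for degradation and was also higher (0.26, limma adjusted p = 0.0335). Where 10.9% of all tested genes were called higher, 3 of 10 tested hypoxia response genes outside the set were. These were EGLN3 (0.47), DDIT4 (0.41) and KDM3A (0.22), with limma adjusted p of 0.00596, 0.00941 and 0.0481. KDM3A lost its call with columns scaled to one sum and with moderation without a trend, and VHL with moderation without a trend. VEGFA, a classical target, had a log2 fold change of -0.098 (limma, adjusted p = 0.345) and was not called.

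**Figure D4:**
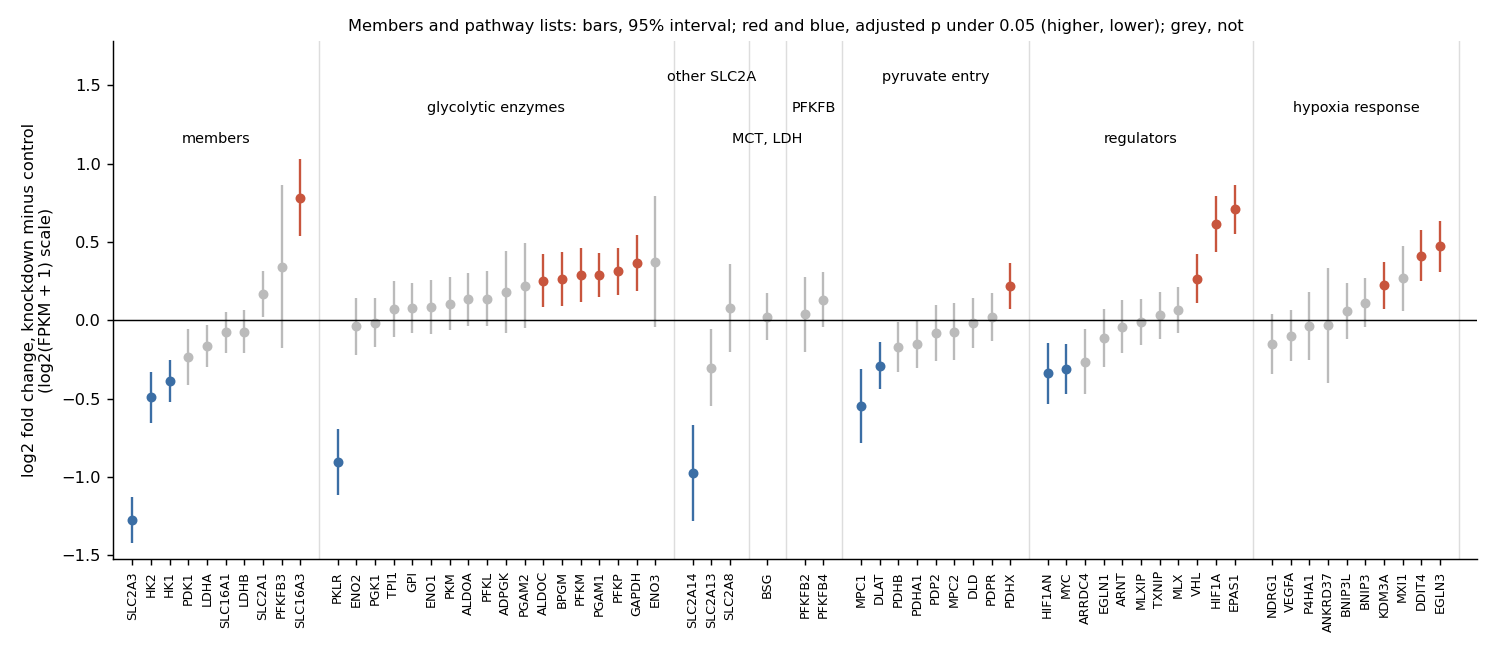
Log2 fold change, knockdown minus control, on the log2(FPKM + 1) scale (y axis) for the 10 members and the 54 tested pathway genes, grouped by list (x axis). Points are limma estimates and bars 95% intervals, red for called higher, blue for called lower and grey for not called. SLC2A3 lies lowest, at -1.28, and SLC16A3 highest, at 0.78.

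Genes with the pattern most like each of the 3 called members of largest change were sought by the Euclidean distance of log2(FPKM + 1), centred on the mean of each gene over the 4 libraries. Among the nearest to SLC2A3 were SAMSN1 (distance 0.071), at 51.4 and 52.7 FPKM with CEBPG present and 20.7 and 21.4 FPKM after knockdown, and ACSM3 (0.095). Nearest to SLC16A3 were ME1 (0.055), FOSL1 (0.078) and HES4 (0.099). Nearest to HK2 were C1GALT1 (0.019), MTR (0.021) and KIAA0040 (0.023). This likeness rests on 4 libraries.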

How the data were processed

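Expression was taken from 1 table that the authors deposited, in FPKM, with 29265 RefSeq entries and 1 column for each of the 4 libraries, without pooling. Per the labels, total RNA went into an Illumina TruSeq kit, and the submitters' processing notes name HISAT2 2.0.5 and hg38. The tool that computed FPKM is not given in the sources used here. An FPKM value depends on the division of reads among transcripts and on the library total. Read depth is unknown, so no counting interval was given.

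Entries without a value (183) or a symbol (164, holding 0.25% of FPKM) were left out, and transcripts were summed by symbol. Genes, and separately transcripts, with a mean of at least 1 FPKM were fitted across all features as log2(FPKM + 1) in limma 3.58.1 (R 4.3.3), 2-sided, with trended moderation and Benjamini-Hochberg correction. DESeq2, which the authors used, needs counts and was not run. Intervals are 95% limma intervals. Gene positions are from GENCODE 44 on hg38, the build of the files. All 23 member accessions matched their symbol in the RefSeq gene table.

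Members and lists were chosen with earlier results of these data known. All 10 members were named. Of each list, called genes were named, at most 4 of largest change, with others that define the list. Some genes that the rules would name are not reported here. The alternatives tried were no filter, a pseudocount of 0.1, a filter at 5 FPKM, a replicate block, 2 scalings, moderation without a trend, coding accessions alone, paralogs summed, the most abundant transcript and each library left out.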

Additional observations from a re-analysis of the deposited data

How the results depend on the processing

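The number of members called (4) was 3 to 6 and the number of member transcripts past the p and fold threshold (3) was 2 to 4 under the alternatives run. The number of called pathway genes (19) was 6 with no filter on low values and 5 to 13 when 1 library was left out, and 11, 5 and 7 without control 2, knockdown 1 and knockdown 2. Of all tested genes, 5.34% were called with no filter and 7.39% to 17.6% with 1 library left out, against 20.9%. Over 117 member values under alternatives, 4 reversed: LDHA with coding accessions alone (0.62) and as NM_005566 (0.66), PDK1 as NM_002610 (0.093), and PFKFB3 over a range of -0.027 to 0.71 when 1 library was left out. HK1 lost its call without knockdown 2 and as NM_033496 (-0.51). HK2, whose only transcript equals its gene sum, was also not called in the fit of transcripts (limma, adjusted p = 0.0997). Both member transcripts called over all transcripts lost their call with the pseudocount of 0.1 (limma, adjusted p = 0.0565), with no filter (0.108), with the replicate block (0.151), without a trend (0.1) and without each library. The cause was not tested. The scalings moved the median of all genes by -0.016 and -0.019, with 24.5% and 24.4% of all genes called. The labels name nothing that replicate numbers share, and the correlation of deviations within a number was 0.101. With the replicate block 31.4% of all tested genes and 6 members were called, LDHA (-0.17, limma adjusted p = 0.00855) and SLC2A1 (0.17, limma adjusted p = 0.0442) being added. SLC16A3 was not compared as a transcript, since its most abundant one was below the filter. Read depth is unknown, which limits what can be said of SLC16A3, PFKFB3 and PDK1 at under 7 FPKM.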
